A study of Mus musculus with 2 samples.

Results

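Nodal and its closest partners form a set of 9 genes: the ligands Nodal, Gdf3 and Gdf1, the co-receptors Tdgf1 (Cripto) and Cfc1 (Cryptic), the secreted antagonists Lefty1 and Lefty2, and the activin receptors Acvr2b and Acvr1b. The members were taken as every non-control probe whose gene name in the array design is one of these symbols, which gave 16 of the 56605 probes and 9 of the 32946 gene names on the array. All 16 probes were well above background on both arrays. The samples were cells labelled KO-Linc1548, a knockout of a long intergenic non-coding RNA, and wild type cells, with 1 array each, both at day 5 of neural differentiation. Both came from the same mouse embryonic stem cell line, which carries a GFP reporter at the neural gene Sox1, and both were grown as floating aggregates in medium with knockout serum replacement. The labels do not say how the knockout was made or whether it is 1 clone. With 1 array per group no difference below was tested, no p-value is given, and culture, clone and genotype cannot be told apart.

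Nodal is a secreted ligand of the TGF-beta family that patterns the early embryo. It binds a complex of type I and type II activin receptors together with an EGF-CFC co-receptor, and the receptors phosphorylate SMAD2 and SMAD3, which enter the nucleus with SMAD4 and act on DNA with partners such as FOXH1. The pathway switches on its own ligand and its own antagonists, the Lefty proteins, so Nodal and Lefty transcripts are widely read as its outputs. In the mouse epiblast Nodal signalling helps to hold cells in a pluripotent state and to delay neural fate.

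Signals are the processed spot intensity after both arrays were scaled to a common 75th percentile, by factors of 1.151 for the knockout array and 0.869 for the wild type array. The ± after a signal or a log2 difference is the error that the scanner software gave to the single spot, which says nothing of the spread between cultures. No probe on the array is named for Linc1548, so the knockout itself could not be checked on these arrays. Both arrays shared a slide and a scan. Neural progenitor markers were present on both arrays, and all 6 of them (Sox1, Pax6, Nes, Hes5, Sox3, Fabp7) were at least 2-fold lower in the knockout, with a summed signal of 9516 in the knockout and 92534 in wild type. Of 6 pluripotency markers, 5 were at least 2-fold higher and the sixth, Nanog, had probes that disagreed (log2 differences of −1.63 and 2.95); their summed signal was 63150 in the knockout and 7733 in wild type. All 4 neuron markers (Tubb3, Dcx, Map2, Elavl3) were at least 2-fold lower, with a summed signal of 3407 in the knockout and 14452 in wild type. Of 5 mesenchyme markers, Thy1 was 4.49-fold higher, Col1a2 was 2.47-fold lower and 3 lay within 2-fold, with a summed signal of 3382 in the knockout and 3324 in wild type.

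In the knockout, 5 of the 9 members were at least 2-fold higher, 0 passed 2-fold downward and 4 lay within 2-fold. Among all 18671 measured genes, 11.5% passed 2-fold upward in the knockout and 8.81% passed it downward; under spike-in centring, which replaces the 75th percentile by the control RNAs added to each sample, those shares were 7.49% and 15.8%, and the median log2 difference of all genes was −0.28 in place of 0.10. The 5 higher members were Nodal, Gdf3, Tdgf1, Lefty1 and Lefty2, by 7.33-fold to 23.3-fold, and all 10 of their probes passed 2-fold, against 10.5% of the 31536 measured probes. No member probe passed 2-fold downward, against 8.44% of measured probes. The other 4, Gdf1, Cfc1, Acvr2b and Acvr1b, had probe log2 differences between −0.64 and 0.38. The median log2 difference of the members was 2.87, against 0.10 for all measured genes. In bulk samples, a larger number of cells that express a gene and more RNA per cell cannot be told apart. Most pluripotency markers were higher in the knockout, as these 5 members were, while the neural progenitor and neuron markers were lower. The part of these marker shifts in the member values was not tested.

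**Figure D1:**
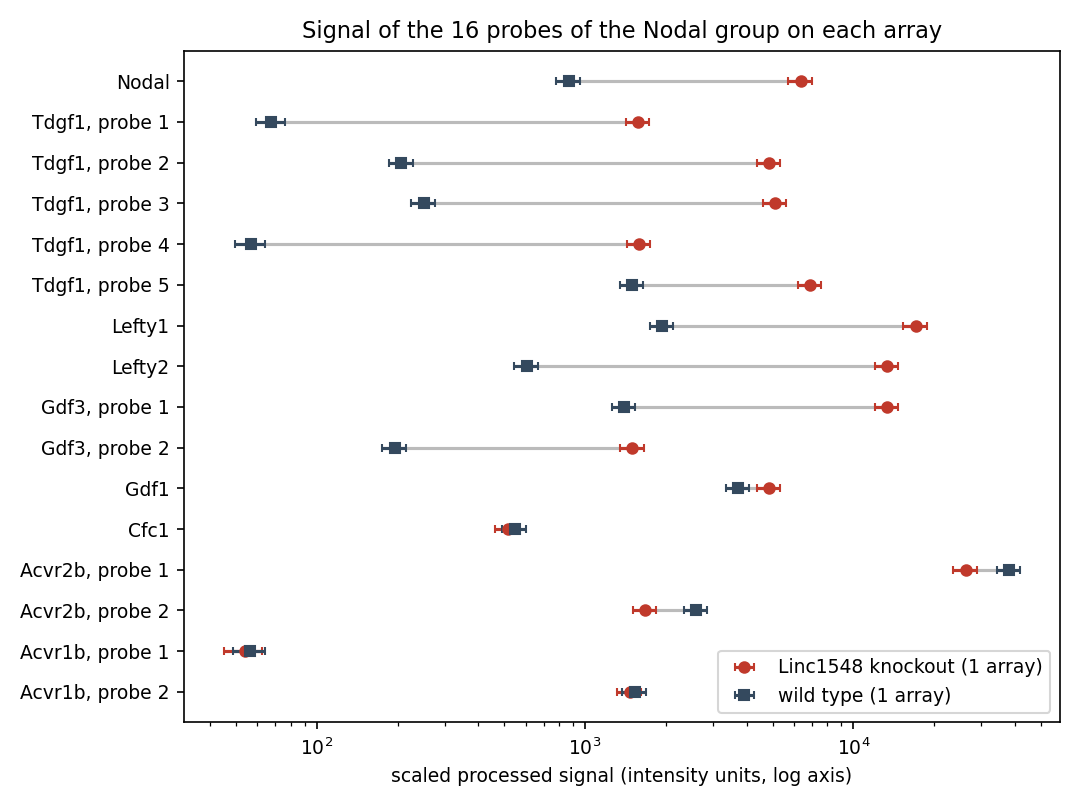
Scaled processed signal (log axis, intensity units) of each of the 16 probes on the knockout array (circles) and the wild type array (squares), with the spot error given by the scanner software; probes of a gene are numbered along the transcript. The 10 probes of Nodal, Tdgf1, Lefty1, Lefty2 and Gdf3 are wide apart with the knockout higher, while the 6 probes of the other members lie close together.

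Nodal, the ligand itself, is read by a single probe on chromosome 10 at 60887790 to 60887849 (plus strand, mouse build mm9, as are all probe positions here). The probe is shown by its first 30 bases, 5′ to 3′, because the reading of the ligand rests on it alone.
Nodal probe: ttattagattataaacgagccatttggttc
Its signal was 6364 ± 636 in the knockout and 868 ± 87.0 in wild type. The knockout was higher by far more than the spot errors, with a log2 difference of 2.87 ± 0.20 (7.33-fold), and Nodal ranked 306th from the top among all 18671 measured genes.

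Gdf3, a ligand of the same family that pluripotent cells express and that also uses Cripto, had 2 probes on chromosome 6 (minus strand). The probe nearer the 5′ end of the transcript, at 122556340 to 122556399, gave 13370 ± 1337 in the knockout and 1394 ± 139 in wild type, a log2 difference of 3.26 ± 0.20. Its full sequence is shown because it carries the larger of the Gdf3 differences.
Gdf3 probe: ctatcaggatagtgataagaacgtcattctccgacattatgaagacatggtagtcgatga
The probe nearer the 3′ end, at 122555421 to 122555480, gave 1501 ± 150 in the knockout and 195 ± 20.1 in wild type, a log2 difference of 2.94 ± 0.21. Both probes were thus higher in the knockout, and by their median Gdf3 was 8.59-fold higher, in 237th place.

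Gdf1, the ligand that pairs with Nodal in left-right patterning, differed little. Its only probe, on chromosome 8 at 72855399 to 72855458, gave 4840 ± 484 in the knockout and 3726 ± 373 in wild type, a log2 difference of 0.38 ± 0.20 that was −0.01 with spike-in centring. The probe does not read Gdf1 alone: of the 3 RefSeq accessions the array design gives it, 2 belong to Gdf1 and 1 belongs to Cers1, a ceramide synthase gene whose transcript also carries the Gdf1 reading frame. The value is that of Gdf1 and Cers1 together.

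Tdgf1 encodes Cripto, the membrane-anchored co-receptor through which Nodal and Gdf3 reach the activin receptors, and it had the largest difference of the set by the median of its probes. Normexp, an alternative background correction, added a constant of 50 to every spot here, which by itself shrinks the differences of dim probes. Lefty2 was above Tdgf1 with normexp (4.29 for Lefty2 and 3.80 for Tdgf1) and with the mean over probes (4.46 and 4.09). Lefty2 was also above with the brightest probe of each gene (4.46 and 2.21). The margin was small when dim probes were filtered more strictly (4.46 and 4.45). Tdgf1 is read by 5 probes on chromosome 9 (minus strand), which start at bases 484, 725, 896, 1113 and 1257 of the transcript. The first gave 1573 ± 157 in the knockout and 67.6 ± 8.19 in wild type, and the second 4850 ± 485 in the knockout and 206 ± 21.1 in wild type. The third gave 5109 ± 511 in the knockout and 250 ± 25.4 in wild type, and the fourth 1593 ± 159 in the knockout and 56.9 ± 7.23 in wild type. These 4 had log2 differences between 4.35 ± 0.21, for the third, and 4.81 ± 0.23, for the fourth, whose spot error ranges just missed each other. The fifth probe, nearest the 3′ end at 110842722 to 110842781, gave 6895 ± 690 in the knockout and 1495 ± 150 in wild type, a log2 difference of 2.21 ± 0.20. By the median of the 5 probes Tdgf1 was 23.3-fold higher (log2 4.54), in 17th place among all measured genes, and without the fifth probe 23.4-fold higher.

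The sequences of the first probe, the second and the fifth are given because the fifth stood apart. Capitals mark the 12-base word, bases 7 to 18 of the fifth probe, that was the most frequent among those in its first 30 bases.
First Tdgf1 probe: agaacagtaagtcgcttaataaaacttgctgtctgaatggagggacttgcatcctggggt
Second Tdgf1 probe: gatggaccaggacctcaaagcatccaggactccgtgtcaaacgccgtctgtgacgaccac
The fifth Tdgf1 probe, first 30 bases: ctacacAGAAACCCTGTCtcggggagaaaa
That word stood on either strand in 54 of 32851 RefSeq promoter windows, against at most 15 windows for the most frequent word in the same stretch of each of the other 15 member probes. The stretch resembles one end of the B1 short interspersed repeat, which is present in many mouse transcripts. The longest run shared with a probe of another gene was 12 to 14 bases for the other 15 member probes. For the fifth probe it was 17 bases, shared with 2 probes. In 1 of them, a probe of Ddx25, the run matched bases 31 to 47 of the fifth probe, past the stretch shown. Whether other transcripts add to the signal of the fifth probe was not tested. The first probe spans 567 bases of the genome, at 110845095 to 110845661, and so reads across an exon junction; the second lies at 110843254 to 110843313.

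**Figure D2:**
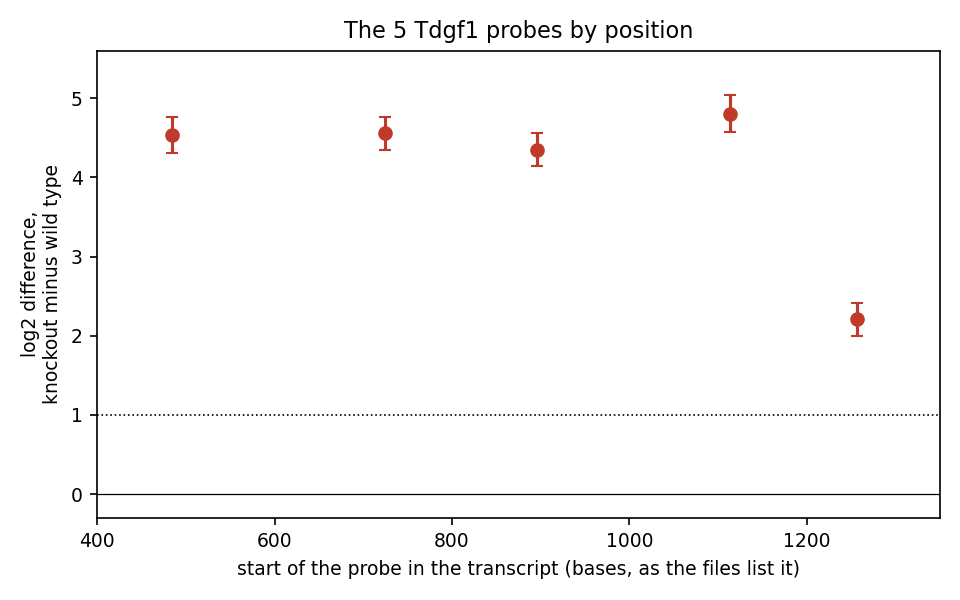
Log2 difference, knockout minus wild type, of the 5 Tdgf1 probes against the base of the transcript at which each starts; bars are the combined spot error of both arrays and the dotted line marks 2-fold. The first 4 probes lie between 4.35 and 4.81 and the fifth, at base 1257, lies at 2.21.

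Cfc1 encodes Cryptic, the other EGF-CFC co-receptor, which in the mouse embryo acts in left-right patterning. Its probe covers 6649 bases of chromosome 1, from 34594245 to 34600893, and therefore crosses an intron. It gave 515 ± 52.0 in the knockout and 546 ± 54.8 in wild type, a log2 difference of −0.08 ± 0.21, with error ranges that overlapped. The paired co-receptors thus gave very different values, 4.54 for Tdgf1 and −0.08 for Cfc1 on the log2 scale.

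Lefty1 and Lefty2 encode secreted antagonists that bind Nodal and its co-receptors, and both are direct targets of the pathway. Lefty1 gave 17082 ± 1708 in the knockout and 1940 ± 194 in wild type, a log2 difference of 3.14 ± 0.20 (8.80-fold), in 224th place. Lefty2 gave 13378 ± 1338 in the knockout and 606 ± 60.7 in wild type, a log2 difference of 4.46 ± 0.20 (22.1-fold), in 22nd place. The knockout was higher for both, and the difference was larger for Lefty2 by more than the spot errors. The genes are similar in sequence, so the first 30 bases of each probe are shown for comparison.
Lefty1 probe: ctttcatgcaaatctgaagtgctcattata
Lefty2 probe: aagggtgtacctgagtctttctggccattg
The full probes share no run longer than 5 bases, but they start at different bases of their transcripts (1208 for Lefty1, 2120 for Lefty2). Whether either probe also matches the transcript of the other gene was not tested. The Lefty1 probe lies on chromosome 1 at 182868137 to 182868196 and the Lefty2 probe at 182828893 to 182828952, 39184 bases apart on the same strand.

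The receptors differed little. Acvr2b, a type II receptor that binds the ligand, had 2 probes on chromosome 9, at 119342560 to 119342619 and 119343711 to 119343770. The first gave 26208 ± 2621 in the knockout and 37995 ± 3800 in wild type, and the second 1673 ± 167 in the knockout and 2599 ± 260 in wild type. Both were lower in the knockout, by log2 differences of −0.54 ± 0.20 and −0.64 ± 0.20. For each probe the spot error ranges of the knockout and wild type signals did not overlap. The gene stayed within 2-fold (−0.59). With spike-in centring the gene was at −0.97 and the second probe at −1.02, past 2-fold.

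Acvr1b (ALK4), the type I receptor that phosphorylates SMAD2 and SMAD3, also had 2 probes, on chromosome 15 at 101042850 to 101042909 and 101043956 to 101044015. The first gave 53.8 ± 8.75 in the knockout and 56.3 ± 7.47 in wild type, close to background on both arrays, and the second 1465 ± 147 in the knockout and 1531 ± 153 in wild type. The log2 differences were −0.07 ± 0.30 and −0.06 ± 0.20, and the error ranges overlapped. The gene value of −0.06 turned to 0.05 with normexp, so Acvr1b has no direction here.

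**Figure D3:**
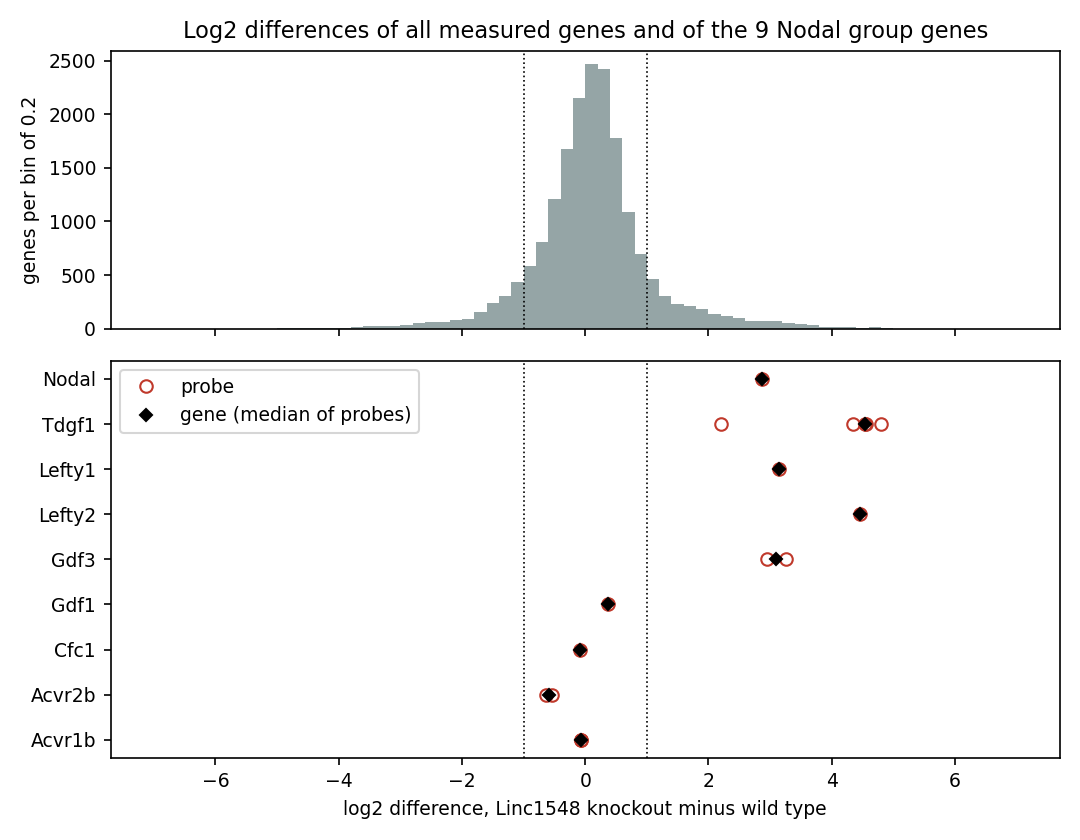
Top, histogram of the log2 difference, knockout minus wild type, of all 18671 genes measured on both arrays; bottom, the 9 members on the same axis, with open circles for probes, diamonds for the gene and dotted lines at 2-fold in either direction. Nodal, Tdgf1, Lefty1, Lefty2 and Gdf3 lie in the upper tail and the other members in the central mass.

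Ordered by log2 difference, the members ran Tdgf1 (4.54), Lefty2 (4.46), Lefty1 (3.14), Gdf3 (3.10), Nodal (2.87), Gdf1 (0.38), Acvr1b (−0.06), Cfc1 (−0.08) and Acvr2b (−0.59). Tdgf1 and Lefty2, Lefty1 with Gdf3 and Nodal, and Acvr1b and Cfc1 were neighbours in this order that did not differ beyond their spot errors. The error range of Gdf1 overlapped that of the first, dim Acvr1b probe (−0.07 ± 0.30) and not that of the second (−0.06 ± 0.20). No member took a value between 0.38 and 2.87. Under 11 processing settings the same 5 members stayed at least 2-fold higher and the other 4 within 2-fold.

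**Figure D4:**
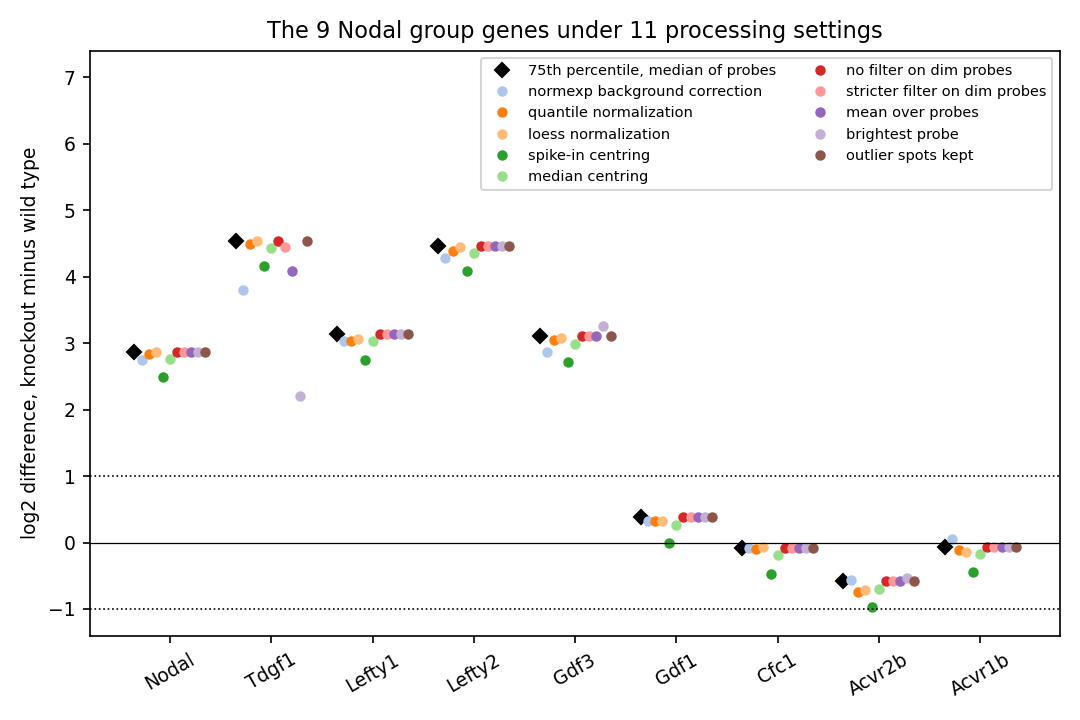
Log2 difference, knockout minus wild type, of the 9 members under the 75th percentile setting used in the text (diamonds) and 10 alternatives (circles); dotted lines mark 2-fold. Tdgf1 moves most, to 2.21 when its brightest probe stands for the gene.

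Promoter sequence was available from RefSeq (GRCm38.p6) for 6 of the 9 members, in 7 windows, and not for Lefty1, Lefty2 and Gdf3. The 250 bases before the start of Tdgf1 and of Nodal are shown because these are the members with an entry that were at least 2-fold higher. The motifs searched, on both strands, were CAGAC, a box that SMAD proteins bind, AATCCACA, an element that FOXH1 binds, and GGGCGTGG, a GT box of the kind bound by Kruppel-like factors, which was added after the Tdgf1 sequence was read. Capitals mark their matches, which do not overlap.
Tdgf1 promoter (chr9:110946159-110946408, minus strand): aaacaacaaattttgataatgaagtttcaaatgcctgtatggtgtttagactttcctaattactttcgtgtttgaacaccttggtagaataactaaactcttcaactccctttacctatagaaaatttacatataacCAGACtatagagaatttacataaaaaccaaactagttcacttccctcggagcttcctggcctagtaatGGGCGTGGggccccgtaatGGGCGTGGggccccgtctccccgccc
Nodal promoter (chr10:61417722-61417971, plus strand): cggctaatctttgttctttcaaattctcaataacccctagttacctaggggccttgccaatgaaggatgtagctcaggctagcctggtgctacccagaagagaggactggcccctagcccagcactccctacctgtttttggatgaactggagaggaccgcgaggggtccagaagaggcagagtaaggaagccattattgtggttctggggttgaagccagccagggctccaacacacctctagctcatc
The Tdgf1 window holds the GT box at 2 places, 45 and 26 bases before the start, inside a run of 21 bases that occurs again 19 bases further on, gtaatGGGCGTGGggccccgt. Since this motif was picked from the Tdgf1 window, its presence there was given in advance; it was in 2 of the 7 member windows, the other being of Gdf1, which stayed within 2-fold, and for description in 4.79% of 32851 windows, at 2 or more places in 0.61%. CAGAC was present once in the Tdgf1 window and in 5 of the 7 member windows, against 42.2% of all windows. AATCCACA was in none of the 7 member windows, against 0.72% of all windows, and the Nodal window held none of the 3 motifs. These are matches of letters in a short window and not sites.

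The genes beside the members were also read, a look added after the member values were known. The nearest 2 protein-coding genes on each side, by their order in the GRCm38.p6 table, gave 14 measured neighbours of the 5 higher members, of which 7 passed 2-fold upward and 0 downward, against the 11.5% and 8.81% of all genes (median log2 difference 0.99). Of 14 measured neighbours of the other 4 members, 2 passed 2-fold upward and 0 downward (median 0.11). Around Gdf3, Dppa3, a maternal factor of early embryos and germ cells, differed by 2.84 and Apobec1, a cytidine deaminase, by 1.81. Nanog, the pluripotency marker whose probes disagreed, also lies beside Gdf3 and was within 2-fold (0.66). Around Tdgf1, Lrrc2 differed by 3.26 and Als2cl by 1.97. Beside the Lefty genes, Tmem63a differed by 1.42. The 4 neighbours of Nodal all lay within 2-fold, from −0.72 to 0.40.

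The rest of the pathway was read in 5 lists that leave out the members. Of their 39 genes, 33 had a value on each array. In the knockout 10 of these (30.3%) passed 2-fold upward and 4 (12.1%) downward, against 11.5% and 8.81% of all genes. Their median log2 difference was 0.11, close to the 0.10 of all genes. Of these 14 genes, 5 higher (Inhbb, Smad7, Skil, Eomes and Fgf8) and 2 lower (Smad3 and Foxa2) stayed past 2-fold under every setting that gave them a value.

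Among other ligands of the activin receptors, Inhba and Inhbb, whose products pair into activins, were the only 2 of 6 measured on both arrays. Inhba gave 139 in the knockout and 56.2 in wild type, a log2 difference of 1.30 that fell within 2-fold with normexp (0.84) and spike-in centring (0.92). Inhbb gave 146 in the knockout and 31.8 in wild type, a log2 difference of 2.20, with the wild type signal near background. Gdf11 cleared background in wild type alone and was at least 2.91-fold lower in the knockout. Inhbc, Inhbe and Mstn were not well above background on either array.

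Of the other receptors, the SMADs and Foxh1, 5 were measured. Of these, 0 passed 2-fold upward and 2 downward, against 11.5% and 8.81% of all genes. Smad3, 1 of the SMADs that the receptors phosphorylate, was 3.37-fold lower, with probes at −1.79 and −1.72. Smad2, its partner in this role, was at −0.34, Smad4 at −0.45 and Foxh1 at 0.19 (−0.19 with spike-in centring), all within 2-fold. Acvr2a, the other type II activin receptor, was 2.03-fold lower, with probes at −1.14 and −0.91, and within 2-fold with normexp (−0.74) and with no filter on dim probes (−0.91). Acvr1c, the ALK7 receptor, was not well above background on either array.

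Ligand processing and the other secreted antagonists were mixed. Furin and Pcsk6, proteases that cut the Nodal precursor, lay at 0.11 and 0.78. Cer1, a Nodal antagonist of the anterior endoderm, gave 1885 in the knockout and 751 in wild type, 2.51-fold higher, and 0.94 on the log2 scale with spike-in centring. Dand5, a Nodal antagonist of the node, gave 116 in the knockout and 254 in wild type, 2.18-fold lower, and −0.69 with normexp. Fst and Fstl3, which bind activins, were within 2-fold.

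Among 12 intracellular modulators, 4 passed 2-fold upward and 0 downward, against 11.5% and 8.81% of all genes, and their median log2 difference was 0.04. Skil (3.60-fold) and Smad7 (3.05-fold), which block SMAD signalling and are themselves induced by it, were the highest, and their probes agreed in direction. Pmepa1, another induced inhibitor, was 2.31-fold higher, or 0.82 on the log2 scale with spike-in centring. Tgif1, a corepressor of SMAD2, was 2.14-fold higher, and within 2-fold with normexp (0.97), median centring (0.98) and spike-in centring (0.71). The other 8, Ski, Trim33, Ppm1a, Tgif2, Smurf1, Smurf2, Nedd4l and Drap1, ran from −0.30 to 0.37.

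Targets of Nodal in the primitive streak and mesendoderm did not share a direction: of 8 with a value, 3 passed 2-fold upward and 1 downward, against 11.5% and 8.81% of all genes, and their median log2 difference was 0.61, against 0.10. Eomes, a T-box factor of the streak, gave 831 in the knockout and 89.1 in wild type, 9.33-fold higher by 1 of its 2 probes, or 1.73 on the log2 scale with no filter on dim probes. Fgf8 was 5.41-fold higher, and Gsc 2.04-fold higher but within 2-fold under 4 settings (0.64 with spike-in centring). Foxa2, a factor of endoderm and floor plate, gave 5976 in the knockout and 21971 in wild type, 3.68-fold lower. Wnt3 (0.38), Lhx1 (−0.00) and T (−0.61, or 0.42 with no filter on dim probes) were within 2-fold. Mixl1 cleared background in the knockout alone, with a bound of at least 1.87-fold, under the 2-fold limit. Endoderm markers (Gata4, Gata6, Sox17, Sox7, Dab2, Afp) had a summed signal of 2374 in the knockout and 2032 in wild type, with 1 of 6, Afp, at least 2-fold higher. Of 4 trophoblast markers, Cdx2 (4.64-fold) and Tfap2c (7.08-fold) were higher and Elf5 and Hand1 were not well above background on either array. The summed signal of Cdx2 and Tfap2c was 3128 in the knockout and 479 in wild type. The part of the endoderm and trophoblast markers in the values of Eomes and the other targets was not tested.

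**Figure D5:**
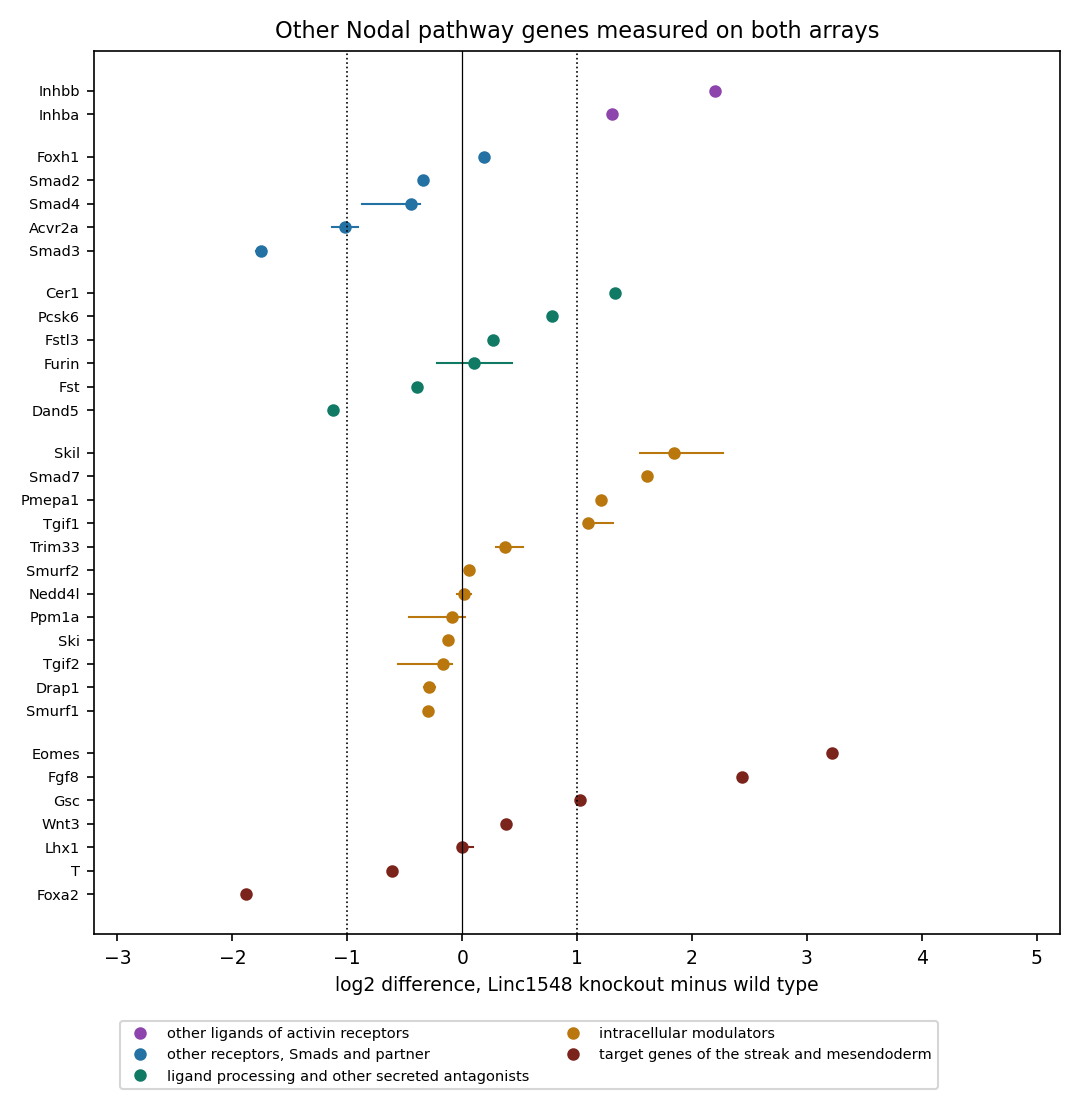
Log2 difference, knockout minus wild type, of the measured genes of the 5 pathway lists that are reported by name; points are genes, lines join the lowest and highest probe of a gene, and dotted lines mark 2-fold. The spread is widest among target genes, from Foxa2 at −1.88 to Eomes at 3.22.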

How the data were processed

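Per the file headers, the deposited values are spot intensity data from Agilent Feature Extraction 10.7.1.1, 1 colour (Cy3), on a design with mm9 positions; the processed signal was background-subtracted and detrended within each array and not normalized between arrays. Outlier spots were left out (155 on the knockout array and 173 on the wild type array), spots of a probe were averaged as log2, and each array was centred on its 75th percentile (652 in the knockout, 864 in wild type, as deposited). A probe was measured where at least a share of 0.5 of its spots was well above background on both arrays and none was saturated; a gene is the median log2 difference of its measured probes. A gene above background on 1 array is given as a bound: its signal over the other array's floor (the dimmest probe called well above background there) or its own signal there, whichever is higher. The summed signal of a marker list adds, over its measured genes, the mean scaled signal of their measured probes, so bright probes weigh most. Genes were named through RefSeq (GRCm38.p6). No test was run, since each group is a single array. Spots of 298 repeated probes gave a pooled SD of log2 signal of 0.070 in the knockout and 0.065 in wild type. The number of arrays limits the precision. All members, every gene of the pathway lists and the markers may be named, though some genes that the counts include are not reported here; no gene was named for a like pattern, since 2 arrays give 1 difference per gene. The members and lists were chosen with earlier results of these data known. The scaling and the gene median were tested on simulated data built from the wild type array, with spot noise and no spread between cultures. Tools were Python 3.11.15, statsmodels 0.14.6, R 4.3.3 and limma 3.58.1.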

Additional observations from a re-analysis of the deposited data

How the results depend on the processing

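The 10 alternatives were normexp, quantile, loess, spike-in and median scaling, no filter and a stricter filter on dim probes, the mean or the brightest probe of a gene, and outlier spots kept. Under all of them 5 members passed 2-fold upward and 0 downward, and no gene past 2-fold changed sign. Tdgf1 ran from 2.21 (brightest probe) to 4.54 and Nodal from 2.49 to 2.87. In the 5 pathway lists, 7 genes passed 2-fold upward and 2 downward with normexp, against 10 and 4 in the text; of all genes 8.34% and 5.61% passed with normexp, against 11.5% and 8.81%. With spike-in centring 5 were higher and the median was −0.28, which follows from its shift of all genes. No paired analysis was possible because each group has 1 array. No replicate could be left out for the same reason. Depth is set by signal over background. The wild type signals of 2 Tdgf1 probes (67.6 and 56.9) and both signals of the first Acvr1b probe were low. Normexp, whose added constant of 50 is of similar size, moved those Tdgf1 probes to 3.62 and 3.80, and the Tdgf1 gene value to 3.80.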
